A study of Drosophila melanogaster with 2 samples.

Results

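The nuclear genes of the respiratory chain encode the enzyme complexes of the mitochondrial inner membrane that pass electrons to oxygen and make ATP. They were chosen by name, as protein-coding genes outside the mitochondrial genome whose symbols begin with ND-, COX, UQCR-, ATPsyn or Sdh. The rule took 88 of 13973 protein-coding nuclear genes, 40 of complex I, 8 of complex II, 9 of complex III, 16 of complex IV and 15 of the ATP synthase, which is also called complex V. The rule is by name, so it leaves out Cyt-c1 and RFeSP, which are complex III subunits with other symbols, and it takes in Sdhaf3, an assembly factor of complex II. It used no measured value.

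Binding of CG10366 at these genes was read from peak lists of a chromatin immunoprecipitation experiment with sequencing (ChIP-seq) in whole Drosophila melanogaster embryos aged 0 to 24 h. The embryos came from the strain CG10366-GFP, an insertion line that expresses CG10366 as a fusion with eGFP, and the description states that the fusion protein was pulled down with an anti-GFP antibody, while the antibody field of the labels names CG10366. There is 1 group, of 2 libraries labelled as biological replicates 1 and 2, and both carry the fusion. A whole embryo pools all cell types and ages of the collection, so a peak cannot be assigned to a tissue, and untagged embryos or input libraries were not analysed here.

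Peaks were deposited for each library as ranked candidates and as the thresholded subset of them, and a series-wide pair of such lists rested on both libraries. The ranked lists score each candidate by its global irreproducible discovery rate (IDR). This is the estimated share, among peaks ranked at least as high, that do not recur between the lists compared. The thresholded lists hold candidates with an IDR of 0.01 or less, a −log10 IDR of at least 2. The series-wide thresholded list held 5153 peaks of 34018 candidates, that of replicate 1 held 4876 of 62792, and that of replicate 2 held 3378 of 37922. A gene was counted as having a passing peak when the summit of a thresholded peak lay within 500 bp of a start of any of its transcripts. The lists give no read totals, so depth is unknown. Signal is the authors' own value for each peak, in arbitrary units, and is compared only within a list.

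In the respiratory chain, complex I takes electrons from NADH and complex II takes them from succinate, both hand them to ubiquinone, complex III passes them to cytochrome c, and complex IV passes them to oxygen. Complexes I, III and IV pump protons across the inner membrane, and the ATP synthase uses the return flow of protons to make ATP. All but complex II also hold subunits encoded in mitochondrial DNA, so their assembly needs products of both genomes. In Drosophila many of these nuclear genes have duplicated copies that are known to be expressed mainly in testis.

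A passing series-wide peak lay at 19 of the 88 genes, or 21.6% with a 95% Wilson interval of 14.3% to 31.3%, beside 19.4% of all protein-coding genes. The share of the respiratory chain genes was close to that background, and no difference from other genes is drawn from it. A ranked candidate, passing or not, lay at 44 of the 88 genes (interval 39.8% to 60.2%), beside 42.9% of all genes. Of the 44 genes with a candidate, 19 passed (43.2%, 29.7% to 57.8%), beside 45.3% of all genes with a candidate. All intervals are Wilson intervals at 95% and cover counting error only.

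The 19 genes were 9 of complex I, 6 of complex IV, 3 of the ATP synthase and 1 of complex III. By complex, 22.5% of the complex I genes had a passing peak (12.3% to 37.5%), 37.5% of the complex IV genes (18.5% to 61.4%), 20.0% of the ATP synthase genes (7.05% to 45.2%) and 11.1% of the complex III genes (1.99% to 43.5%). None of the 8 complex II genes had one, which allows up to 32.4%. These intervals overlap each other and, for each complex, hold the 19.4% of all genes.

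**Figure D1:**
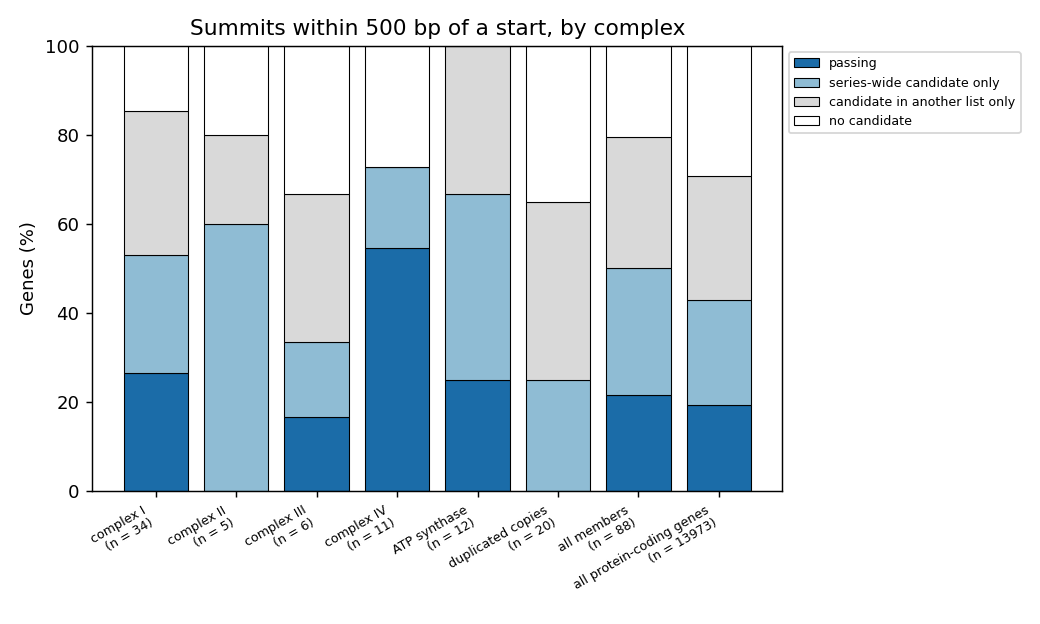
Share of genes in percent by the best evidence at their starts, for each complex without its duplicated copies, for the duplicated copies, for all 88 respiratory chain genes and for all 13973 protein-coding genes. Bars are split into genes with a passing series-wide peak, with a series-wide candidate only, with a candidate in another list only and with none. Passing shares were 54.5% of 11 complex IV genes and 0% of 20 duplicated copies, against 19.4% of all genes. With its copies, complex IV had 37.5% of 16 genes (18.5% to 61.4%). Copies are only genes named after another listed gene, so COX6AL, COX6AL2 and COX6CL are counted among the 11.

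Sequences are shown at 7 of the 9 summits with the highest signal, because they carry the positions and base content described further on. Of the other two, the summit of ATPsynE lies inside an exon, and the sequence at ND-MWFE is not shown here. Each stretch runs 5′ to 3′ along the gene's own strand, from 50 bp before to 50 bp after the summit, cut where an exon begins, in dm6 coordinates with letters from the RefSeq copy of that assembly. Capitals mark matches to any of the 12 motifs searched. The windows are ND-ASHI at chrX:6679316-6679416 on the minus strand, ND-24 at chrX:17632180-17632238 on the plus strand, COX5A at chr3R:11819460-11819547 on the plus strand, ND-51 at chr2L:6062829-6062929 on the minus strand, COX5B at chr2L:6557503-6557577 on the plus strand, COX8 at chr3L:21539483-21539583 on the minus strand, and ND-B17 at chr2L:15751125-15751225 on the minus strand.
ND-ASHI: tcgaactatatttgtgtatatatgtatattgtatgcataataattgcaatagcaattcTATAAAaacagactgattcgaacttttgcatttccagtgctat
ND-24: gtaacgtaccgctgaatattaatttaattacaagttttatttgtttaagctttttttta
COX5A: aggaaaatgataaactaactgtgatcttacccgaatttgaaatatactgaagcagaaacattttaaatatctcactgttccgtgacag
ND-51: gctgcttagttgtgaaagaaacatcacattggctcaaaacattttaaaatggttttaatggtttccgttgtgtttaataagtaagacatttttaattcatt
COX5B: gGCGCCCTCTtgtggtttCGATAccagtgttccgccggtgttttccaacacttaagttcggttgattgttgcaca
COX8: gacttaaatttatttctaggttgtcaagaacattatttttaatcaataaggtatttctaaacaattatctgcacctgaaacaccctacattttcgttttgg
ND-B17: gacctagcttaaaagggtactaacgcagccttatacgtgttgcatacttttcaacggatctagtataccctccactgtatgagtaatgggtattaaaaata
The capitals mark TATAAA in ND-ASHI, and a CTCF core on the reverse strand and CGATA in COX5B. No motif of those searched lay within the other 5 printed stretches. The share of G and C in the printed stretches ran from 22.0% in that of ND-24 to 50.7% in that of COX5B.

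The strongest peaks lay at complex I genes. ND-ASHI, an accessory subunit named like several others after the first residues of its bovine counterpart, had a signal of 581 in the series-wide list, where it ranked 269 of 5153. Its strongest peak had a signal of 319 in replicate 1 and 249 in replicate 2, and the −log10 IDR of 5 was the highest that the ranked list gives. The peak spanned X, 6679259 to 6679484, with its summit 248 bp upstream of the nearest ND-ASHI start, in an intron of Fum1.

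ND-MWFE, another accessory subunit, had a signal of 440, with 303 in replicate 1 and 136 in replicate 2. The peak lay on 2R, 13158390 to 13158594, 187 bp upstream of the ND-MWFE start and 34 bp upstream of a start of TppII. ND-24 had a signal of 404, with 253 in replicate 1 and 132 in replicate 2, at X, 17632073 to 17632283. Its summit fell in an intron of the gene, 99 bp downstream of one start and 133 bp upstream of another. These 3 were the only respiratory chain genes among the 19 with a signal above 400, and each passed in both replicates.

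Complex I holds 7 nuclear core subunits, those with counterparts in the bacterial enzyme, which together form the arm that takes electrons from NADH to ubiquinone. Of these, ND-24, ND-51 and ND-23 had passing peaks. ND-51, which binds the flavin where NADH is oxidised, had a signal of 248, with 144 in replicate 1 and 110 in replicate 2, in the intergenic stretch 122 bp upstream of its start. ND-23 had a signal of 114 and passed in replicate 2, at 52.7, while its candidate in replicate 1 had a −log10 IDR of 1.82. Of the other core genes, ND-75 and ND-20 had series-wide candidates that did not pass, with −log10 IDR of 0.255 and 0.221. ND-30 had candidates in other lists only, and ND-49 had none.

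Among the 27 accessory subunits that are not copies, 6 had a passing peak (22.2%, 10.6% to 40.8%). Beside ND-ASHI and ND-MWFE these were ND-B17, ND-SGDH, ND-42 and ND-MNLL, with signals of 158, 156, 154 and 134. ND-B17 had 88.4 in replicate 1 and 72.2 in replicate 2, ND-42 had 98.0 and 59.5, and ND-MNLL had 70.7 and 69.6, in the same order. ND-SGDH passed in replicate 1 only, at 99.2, and its candidate in replicate 2 had a −log10 IDR of 1.90, just short of the threshold. All 4 summits were intergenic, between 35 and 105 bp upstream of the nearest start.

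**Figure D2:**
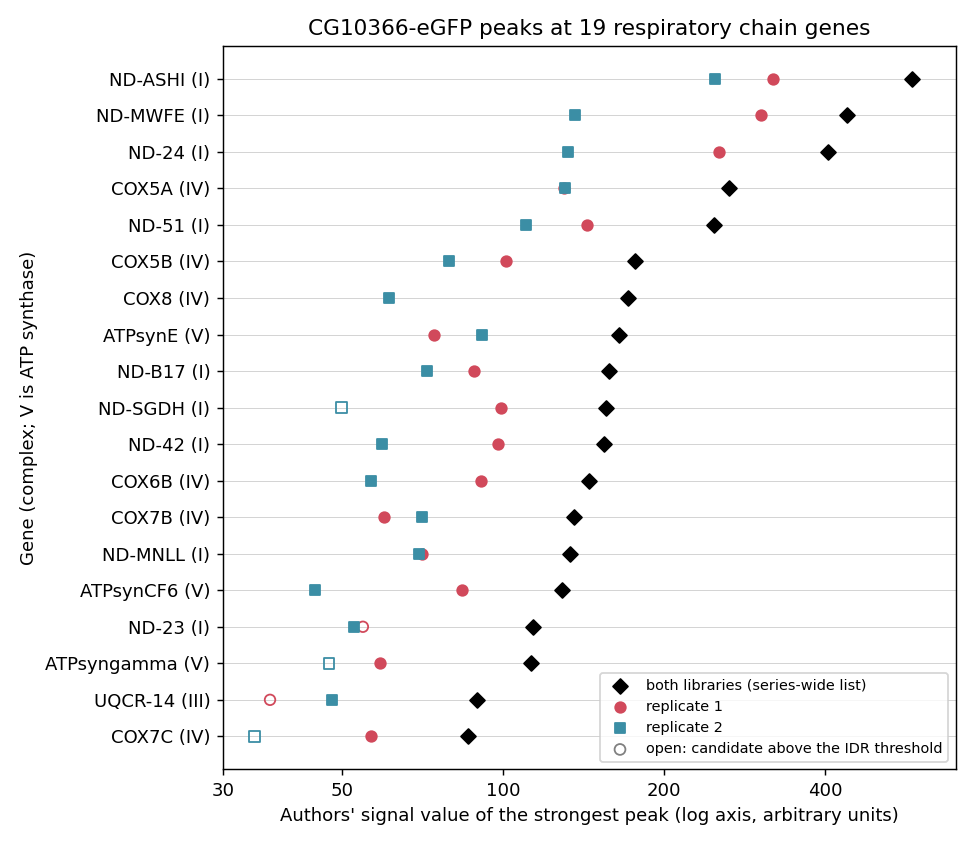
Authors' signal value, in arbitrary units on a log axis, of the strongest peak at each of the 19 respiratory chain genes with a passing series-wide peak. Diamonds are the series-wide list, circles replicate 1 and squares replicate 2, with open symbols for candidates whose IDR is above the threshold. ND-ASHI, ND-MWFE and ND-24 stand above the rest in the series-wide list, COX8 has no replicate 1 symbol, and the COX5A replicate symbols lie on top of each other at 130.

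Complex IV, cytochrome c oxidase, had passing peaks at COX5A, COX5B, COX8, COX6B, COX7B and COX7C, which are small nuclear subunits around the mitochondrially encoded catalytic core. COX5A had the strongest, with a signal of 265 at 3R, 11819458 to 11819573, and 130 in each replicate. Its summit lay in an intron, 89 bp upstream of one COX5A start and 151 bp downstream of the other. COX5B had a signal of 177 at 2L, 6557362 to 6557691, with 102 in replicate 1 and 79.2 in replicate 2. Its summit was 273 bp upstream, the farthest upstream of the 19, and 25 bp upstream of the start of IFT52.

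COX6B had a signal of 145, with 90.8 in replicate 1 and 56.7 in replicate 2, and COX7B had 136, with 60.0 in replicate 1 and 70.7 in replicate 2. Both summits were intergenic, 81 bp upstream of COX6B and 169 bp upstream of COX7B. COX8 and COX7C each passed in the list of a single library. COX8 had a series-wide signal of 171 and 61.3 in replicate 2, and replicate 1 had no candidate within 500 bp of it. COX7C had 86.0, the lowest signal of the 19, with 56.6 in replicate 1 and a replicate 2 candidate at a −log10 IDR of 1.22.

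The COX7C summit was 255 bp downstream of one COX7C start and 11 bp downstream of a start of oys, a lysophospholipid acyltransferase gene on the opposite strand, in whose 5' UTR it fell. Among the other complex IV genes that are not copies, COX7A reached a −log10 IDR of 1.58 in replicate 2 but 0.383 in the series-wide list. COX4, a further subunit gene, had no candidate in any list.

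The ATP synthase had passing peaks at ATPsynE, ATPsynCF6 and ATPsyngamma. ATPsyngamma encodes the central stalk subunit that turns inside the catalytic head, CF6 is part of the peripheral stalk, and the e subunit lies in the membrane part. ATPsynE had a signal of 165, with 74.5 in replicate 1 and 91.2 in replicate 2, and its summit lay in the 5' UTR, 37 bp downstream of one start and 84 bp upstream of the other. ATPsynCF6 had 129, with 83.8 in replicate 1 and 44.5 in replicate 2, at 98 bp upstream. ATPsyngamma had 113 and passed in replicate 1 only, at 58.9, with a replicate 2 candidate at a −log10 IDR of 1.04.

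ATPsynC, the gene of the membrane ring subunit, stood apart from the other genes with no passing peak. Its series-wide candidate at 3R, 31219582 to 31219911, 117 bp upstream of the start, had a signal of 119 and a −log10 IDR of 3.09, which meets the threshold, yet the peak is 1 of 148 such candidates that the authors left out of the series-wide thresholded list. The replicate 1 value was 3.63 and the replicate 2 value 0.173. ATPsynbeta, which carries the catalytic sites, had a candidate with a −log10 IDR of 1.06.

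In complex III, UQCR-14 was the only gene with a passing peak. It had a signal of 89.3 and a −log10 IDR of 2.30, the closest to the threshold of the 19, and the next closest were COX7C at 2.77 and ND-42 at 2.90. It passed in replicate 2 at 48.0, and its candidate in replicate 1 had a −log10 IDR of 1.01. The summit was 18 bp upstream of the UQCR-14 start, inside the 3' UTR of CG32576. UQCR-C1 and UQCR-Q had candidates in other lists only, and UQCR-C2 and UQCR-6.4 had none.

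Complex II, succinate dehydrogenase, also belongs to the citric acid cycle. SdhC, one of its membrane anchors, had a candidate 275 bp upstream of its start with a signal of 78.4. It passed in the conservative list, the other list that rests on both libraries, at a −log10 IDR of 2.01, but had 0.365 in the series-wide list and 1.87 in replicate 2, and replicate 1 held no candidate. SdhB and SdhD had series-wide candidates with −log10 IDR of 0.651 and 0.118, and SdhA, the flavoprotein, had none in any list. In the conservative list as a whole, 20 of the 88 genes passed (22.7%, 15.2% to 32.5%), beside 19.3% of all genes.

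The 20 duplicated copies, genes whose symbol is that of another listed gene with L, L1 or L2 added, had no passing peak, which allows up to 16.1%, beside 19.4% of all protein-coding genes and 10.8% of all genes without a head-to-head partner. The 68 other genes had 19 (27.9%, 18.7% to 39.6%), and of the 18 genes that the copies are named after, 6 had one (33.3%, 16.3% to 56.3%). Those 6 were COX5B, COX7C, ATPsynCF6, ND-24, ND-51 and UQCR-14. The strongest candidate at a copy was at UQCR-6.4L, with a signal of 72.6 and a −log10 IDR of 0.358 in the series-wide list and 1.99 in replicate 1. COX7AL2 had 51.3 and 1.03, ND-51L2 had 35.1 and 0.333, and COX5BL had 27.4 and 0.118, for the same 2 measures in the series-wide list.

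The gene arrangement of the copies was counted as well. A head-to-head partner, a protein-coding gene on the opposite strand whose start lies upstream within 1000 bp, was present at 3 of 20 copies (interval 5.24% to 36.0%) and at 41 of the 68 other genes (60.3%, 48.4% to 71.1%). Arrangement and being a copy therefore move together here, and their separate parts were not tested. How reads that match more than one place were handled is not given in the sources used here.

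Most of the respiratory chain genes with a passing peak had a head-to-head partner, 17 of 19, beside 1752 of all 2715 genes with a passing peak. Of the 88 genes, 44 had a head-to-head partner (interval 39.8% to 60.2%), beside 36.2% of all protein-coding genes. A passing peak lay at 17 of the 44 genes with a partner (38.6%, 25.7% to 53.4%), beside 34.7% of all genes with a partner. Among the 44 genes without one, 2 had a passing peak (4.55%, 1.26% to 15.1%), beside 10.8% of all genes without one, and these were ND-B17 and UQCR-14. Within the 88 genes and across all genes alike, the share was higher with a partner, and in each class the interval of the 88 held its background. A gene with a partner has a further start within reach of the same summit, so a peak cannot be given to either gene of a pair.

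The partners have varied roles. Fum1, which shares the strongest peak with ND-ASHI, encodes fumarase of the citric acid cycle, and Cchl, which shares its peak with ND-42, encodes the lyase that attaches heme to cytochrome c. The others with a known role include Sec13 of the vesicle coat beside ATPsynCF6, Sec3 of the exocyst beside COX7B, the golgin p115 beside ND-MNLL, VhaM9.7-b of the vacuolar proton pump beside COX8, and IFT52 of intraflagellar transport beside COX5B. The piRNA pathway helicase spn-E stands beside ND-23, corolla of the synaptonemal complex beside ND-24, the RNA-binding protein gene glo beside COX5A, and the peptidase gene TppII beside ND-MWFE. The closest starts of the 17 pairs, over all transcripts, lay 20 to 862 bp apart, with a median of 232 bp. They are not always the starts nearest to the summit. At ND-ASHI, ATPsyngamma and COX5A, for example, the summit lay outside the gap between the closest starts.

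**Figure D3:**
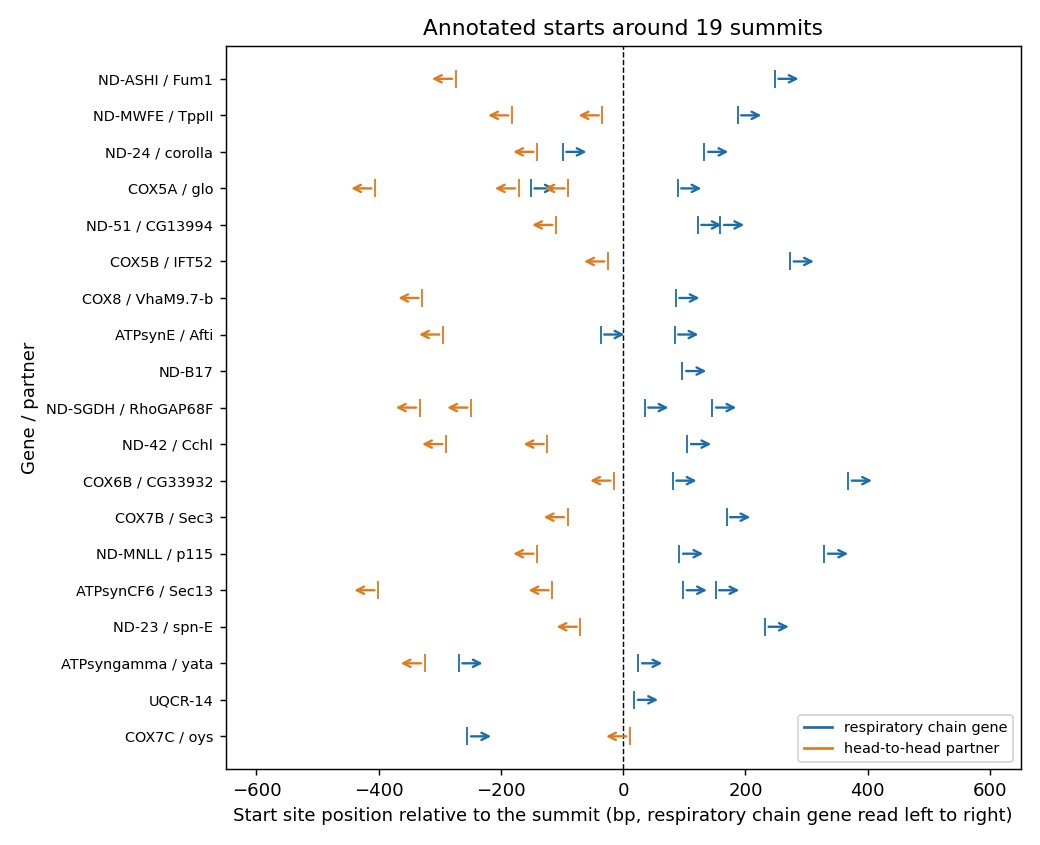
Distance in bp from the summit to the starts of the respiratory chain gene and of its head-to-head partner, for the 19 genes with a passing series-wide peak, oriented along the respiratory chain gene, with starts beyond the axis range not drawn. Most summits fall between the nearest starts of the pair, and ND-B17 and UQCR-14 have no partner.

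At the head-to-head pairs, 14 of 17 summits lay upstream of both genes (82.4%), each judged by its start nearest to the summit. The share was 82.2% of 1752 genes with a partner and a passing peak. The 14 include ATPsyngamma and COX5A, whose summits lay 269 and 151 bp downstream of another start of the same gene. The other 3 summits were past the nearest respiratory chain start, at ND-24, ATPsynE and COX7C, and in 7 of the 17 pairs the summit was nearer to the partner's start than to that of the respiratory chain gene. Over the 19 genes the median distance from the nearest start was −92 bp, where a minus sign means upstream, with quartiles of −145.5 and −30.0 bp. Over the 2715 genes with a passing peak it was −130 bp, with quartiles of −221 and −63.0 bp. By annotation, 11 of the 19 summits were intergenic (57.9%), 4 in introns (21.1%), 3 in 5' UTRs (15.8%) and 1 in a 3' UTR (5.26%), and none was in coding sequence. The matching shares of the 2715 genes were close, at 61.0%, 19.2%, 16.0% and 1.25%, with 0.553% in coding sequence. No summit was shared by a pair of respiratory chain genes.

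The peaks were of ordinary strength. The median series-wide signal at the 19 genes was 156, with quartiles of 131 and 212, beside 172.5 with quartiles of 116 and 303 over the strongest peak of each of the 2715 genes. In replicate 1 the median was 94.4 over 16 genes, beside 105 over all genes with a passing peak there. In replicate 2 it was 71.5 over 16 genes, beside 94.6 over all genes with a passing peak there. The medians of the 19 genes were thus below those of all genes in each list, within broadly overlapping quartiles in the series-wide list.

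Each replicate on its own had a passing peak at 16 of the 88 genes (18.2%, 11.5% to 27.5%), beside 18.4% of all genes in replicate 1 and 14.8% in replicate 2. The lists shared 13 genes (14.8%, 8.84% to 23.7%), beside 13.0% of all genes that passed in both. Replicate 1 alone held ND-SGDH, ATPsyngamma and COX7C, and replicate 2 alone held COX8, ND-23 and UQCR-14. Each set was 3 of the 19 genes (15.8%, 5.52% to 37.6%). Among the 2715 genes with a passing series-wide peak, 21.0% passed in replicate 1 alone and 6.48% in replicate 2 alone. At the 13 shared genes the summits of the replicates were a median of 22.0 bp apart, with a range of 0 to 119 bp, beside a median of 16.0 bp over 1819 genes.

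**Figure D4:**
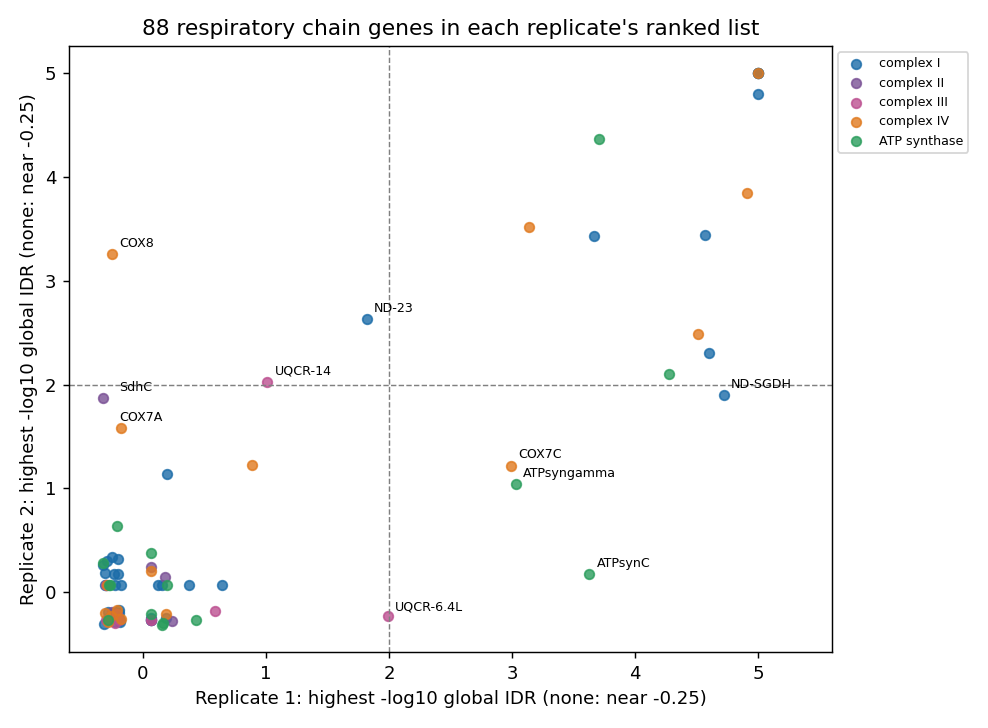
Highest −log10 global IDR of a candidate within 500 bp of a start in replicate 1 (horizontal axis) and in replicate 2 (vertical axis) for the 88 respiratory chain genes, coloured by complex. Dashed lines mark the threshold of 2, and genes with no candidate in a library are drawn just below 0, with small offsets to separate them. The 13 shared genes lie at the upper right, COX8, ND-23 and UQCR-14 at the upper left, and ND-SGDH, COX7C and ATPsyngamma at the lower right with ATPsynC.

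The DNA under the passing summits was rich in A and T. Within 50 bp of the summit the mean GC content was 34.7% ± 10.7 (SD) over the 19 genes, with a range of 18.8% at ND-24 to 58.4% at COX6B. Over the 1917 promoter summits, each the strongest passing one at a protein-coding gene, it was 34.7% ± 10.04 (SD). At the strongest candidate of the 25 genes whose series-wide candidates did not pass, it was 44.8% ± 11.1. In a 51 bp window moved along the DNA, the mean at the 19 genes was 34.8% at the summit, 45.9% at 300 bp upstream and 47.9% at 300 bp downstream, while at the 25 genes it was 46.7% at the summit. Base content also moves with position in a promoter, and its part in these values was not tested.

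**Figure D5:**
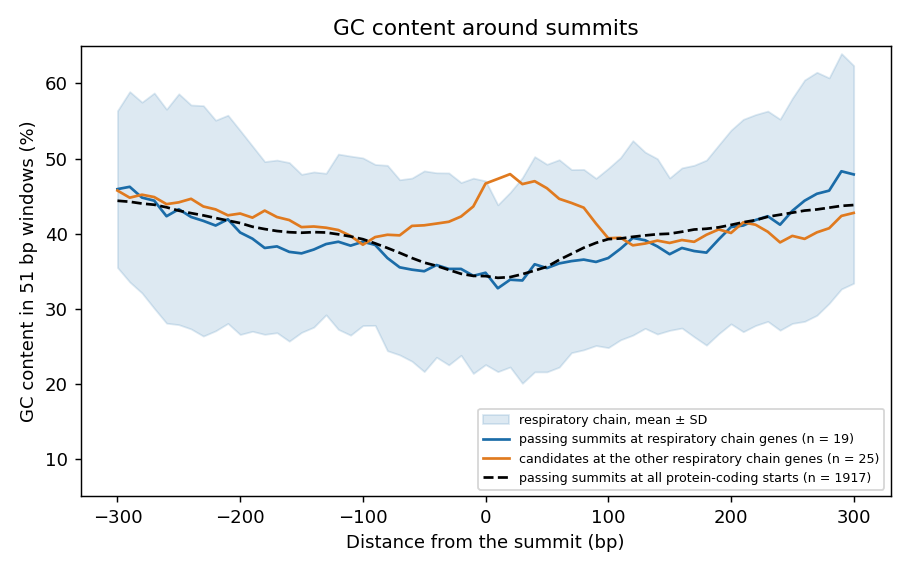
Mean GC content in percent, in 51 bp windows, against distance in bp from the summit, for the 19 passing summits at respiratory chain genes with a band of 1 SD, for the 1917 summits that are the strongest passing one at a protein-coding gene, and for the strongest candidates of the 25 respiratory chain genes with a series-wide candidate but no passing peak. The first profile is at 34.8% at the summit and lowest at +10 bp, at 32.7%. The candidates that did not pass are at 46.7% at the summit.

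Motifs were searched as plain letters on both strands within 100 bp of each summit, and every TATCGATA also holds a CGATA match. The shorter of these lay near 12 of the 19 summits (63.2%, 41.0% to 80.9%), beside 38.4% of the same 1917 promoter summits. Within 50 bp the order turned, with 3 of 19 (15.8%) beside 22.0%. The full TATCGATA, bound in flies by the promoter factor DREF, lay near ATPsynE, ND-23 and UQCR-14 (15.8%), beside 7.72%. Ohler motif 7, a fly core promoter element searched under its published consensus, lay near 6 summits (31.6%, 15.4% to 54.0%), beside 12.2%, and near 2 within 50 bp (10.5%), beside 4.75%. The 6 were at ND-ASHI, ND-MWFE, ND-24, ND-MNLL, ND-SGDH and COX7C. No test was made of these shares, and a match is a description of letters.

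TTANNTAA lay near 7 summits (36.8%), beside 21.8%, and TATAAA near 8 (42.1%), beside 36.0%. For TATAAA the order turned within 200 bp, with 9 of 19 (47.4%) beside 53.4%. GAGAG lay near 2 (10.5%), beside 19.8%. Ohler motif 1 lay near the summit of ND-B17 alone (5.26%, beside 2.09%), and the CTCF core near that of COX5B alone (5.26%, beside 1.56%). No match was found there to the E-box CACGTG, to TGCGCA, to TTACGTAA or to the pattern searched as the NRG element. Over the 1917 promoter summits these had 1.98%, 5.27%, 0.104% and 0.522%, in that order. The interval of 0 of 19 reaches 16.8% and holds each of them. The NRG element is a name known from fly genes for mitochondrial proteins. The pattern searched under it did not take in TTACGTAA. Within 200 bp, UQCR-14 had a TTACGTAA match, and the pattern matched at 0 of 19 summits. Whether the published element is present at these genes is therefore not answered here. In the promoters of the 88 genes, taken from 250 bp before to 50 bp after the gene's start, Ohler motif 1 was present in 13 (14.8%, 8.84% to 23.7%), beside 4.50% of 13945 promoters. It was present in 5 promoters of the 19 genes with a passing peak and in 8 of the 69 without. The pattern searched as the NRG element had no match in the 88 promoters, beside 0.875% of all promoters.

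Across chromosome arms, passing peaks lay at 5 of 13 genes on X, 6 of 20 on 3R, 3 of 20 on 3L, 3 of 16 on 2L, 2 of 17 on 2R and 0 of 2 on chromosome 4. Over all protein-coding genes the shares were 19.4% on X, 20.3% on 3R, 20.5% on 3L, 19.3% on 2L, 18.1% on 2R and 4 of 80 genes on chromosome 4. The respiratory chain shares were above these on X (38.5%, 17.7% to 64.5%) and 3R (interval 14.6% to 51.9%) and below them on the other arms, and each interval held the share of all genes on its arm. The counts per arm are too small to order the arms.

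Of the 69 genes with no passing series-wide peak, 25 had a series-wide candidate, 26 had a candidate in another list only, and 18 had none. The 25 had a median signal of 41.6 and a median −log10 IDR of 0.358, and after ATPsynC the highest −log10 IDR were ND-B22 at 1.11, ATPsynbeta at 1.06 and COX7AL2 at 1.03. Among the genes with no candidate were ND-49 and ND-19 of complex I, SdhA, UQCR-C2, COX4, and the copies ND-24L, ND-49L, ND-51L1, SdhBL, SdhCL, COX4L and COX7CL. The remaining ones were ND-13B, ND-B14.5A, ND-B14.5B, UQCR-6.4, COX6AL and COX6AL2. No candidate in any list lay at 20.5% of the 88 genes, against 29.2% of all genes. The 26 with a candidate in another list only were 11 of complex I, 1 of complex II, 2 of complex III and 4 of the ATP synthase, plus 8 duplicated copies.

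A list of 35 other genes of mitochondrial energy metabolism, outside the name rule, was counted alongside, and 10 had a passing peak (28.6%, 16.3% to 45.1%), beside 19.4% of all genes. Fum1 and Cchl were among them through the peaks of ND-ASHI and ND-42. The highest signal was 856 at Cyt-c-d, a cytochrome c gene known for its role in the male germline, with a summit 373 bp downstream of its start, while Cyt-c-p, the other cytochrome c gene, had a candidate that did not pass, with a signal of 63.5. From the citric acid cycle, Idh3g had 556, Scsalpha1 had 156 and mAcon1 had 148, and from the pyruvate dehydrogenase complex Pdhb had 234 and muc had 105.

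From the upkeep of mitochondrial DNA, mtSSB, the single-strand binding protein, had a signal of 355, and PolG2, the accessory subunit of the DNA polymerase, had 193. The complex III genes Cyt-c1 and RFeSP had no passing peak. Neither had TFAM, which packages mitochondrial DNA, nor ewg and srl, fly relatives of the mammalian regulators of respiratory genes NRF-1 and PGC-1.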

How the data were processed

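Peak lists of 2 ChIP-seq libraries were used, in dm6 coordinates per the labels. Aligner and peak caller: not given in the sources used here. Each list gives the authors' signal per peak, a deposited score, which began at 830 of at most 1000 in the thresholded lists, and, in the ranked lists, the −log10 of the global IDR that the authors computed. The thresholded lists match the deposited ranked peaks with a −log10 IDR of at least 2, less a few left out, 148 of them series-wide. The lists hold no read totals, so the depth of each library is unknown.

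Starts, exons and UTRs came from Ensembl release 115, and sequence from the RefSeq copy of the same assembly, with arm names and lengths that match the peaks. A summit was the peak's start plus its summit offset, set to 1-based coordinates. A gene's strongest peak was that of highest signal within 500 bp of any start. The annotated class of a summit is the first that applies of coding sequence, 5' UTR, then 3' UTR, then exon of a non-coding gene, then intron, then intergenic. Shares have 95% Wilson intervals. There is 1 group, so no test between conditions was made, and none was made over gene lists. Named were all members with a passing peak in any thresholded list, the highest candidates below the threshold, and the listed other genes with a passing peak; genes such as SdhB, Cyt-c-p and TFAM were named beside these for their roles. Alternatives were windows of 250 and 1000 bp, the conservative list, an IDR of 0.001, all ranked peaks at the IDR threshold, the gene's 5' end as the only start, each replicate alone, and motif windows of 50 and 200 bp in place of 100 bp. The members, lists and motifs were chosen with earlier results of these data known. The matching of summits to starts was tested on simulated summits. Python 3.11.15, numpy 2.4.6, pandas 2.3.3, scipy 1.17.1 and matplotlib 3.10.9 were used.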

Additional observations from a re-analysis of the deposited data

How the results depend on the processing

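Of the 19 genes with a passing peak, 11 had one under every alternative. The window of 250 bp lost COX5B and COX7C (17 genes) and that of 1000 bp gained UQCR-6.4L (20). The conservative list gained SdhC (20), an IDR of 0.001 lost COX7C, ND-42 and UQCR-14 (16), ranked peaks at the IDR threshold gained ATPsynC (20), and the gene's 5' end as the only start changed none. Replicate 2 alone lost ATPsyngamma, COX7C and ND-SGDH, and replicate 1 alone lost COX8, ND-23 and UQCR-14, leaving 16 each. The share of all protein-coding genes with a passing peak, 19.4% as reported, was 15.4% with 250 bp, 22.6% with 1000 bp, 15.6% at an IDR of 0.001, 17.3% with the gene's 5' end only, and 14.8% to 18.45% with a replicate left out. Small counts moved with these genes. Complex III had 2 genes with 1000 bp, 0 at an IDR of 0.001 and 0 to 1 with a replicate left out. Complex II had 1 in the conservative list, the duplicated copies had 1 with 1000 bp, and genes without a head-to-head partner had 1 at an IDR of 0.001 and 1 to 2 with a replicate left out. The other mitochondrial genes numbered 6 with 250 bp, against 10 as reported. Causes were not tested. The respiratory chain share stood above that of all genes in the series-wide list, in the conservative list and in replicate 2 (18.2% beside 14.8%), and just below it in replicate 1 (18.2% beside 18.4%). Motif windows of 50 and 200 bp turned the order for CGATA at 50 bp and for TATAAA at 200 bp, for Ohler motif 1 at 50 bp (0 of 19 beside 0.782%) and for TTACGTAA at 200 bp (1 of 19 beside 0.574%). Of the other motif counts, TTANNTAA and Ohler motif 7 had 4 and 2 summits at 50 bp, TATCGATA had 5 at 200 bp, and GAGAG had 0 at 50 bp and 4 at 200 bp.

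No paired analysis was possible because the series has 1 group. With 88 genes the interval on the main share is wide (14.3% to 31.3%), so a departure from all genes within it was not detectable. The lists give no read totals, so the limits that depth sets are unknown.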
